A study of Rattus norvegicus with 4 samples.

Results

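Platelets, the cell fragments that start blood clotting, are shed in the marrow by megakaryocytes, and a small set of transcripts marks both. The set described here is 9 such genes, chosen by name: the chemokines Pf4 and Ppbp, the receptor subunits Gp1ba, Gp1bb and Gp9, the integrin subunit Itga2b, the collagen receptor Gp6, the granule receptor Treml1 and the tubulin Tubb1. All 9 were found by symbol among the 24005 genes of the count table. The samples were cartilage RNA from male Sprague Dawley rats of 8 to 12 weeks weighing 140 to 230 g, with 2 libraries labelled healthy and control and 2 labelled osteoarthritis. Both osteoarthritis libraries also carry the treatment label XGS, for the herbal preparation Xiaogu San, so disease and treatment cannot be told apart. The series' title says that monosodium iodoacetate, a chemical inhibitor of glycolysis, induced the disease. The design text calls the normal animals mice, while each sample is labelled rat. No label says whether 1 or several animals gave a library, so p-values measure only the spread between these libraries, which may be technical.

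Platelets attach to an injured vessel wall through the GPIb-IX complex, which binds von Willebrand factor, and through GPVI, the product of Gp6, which binds collagen. Signals from these receptors activate the integrin alpha IIb beta 3, the fibrinogen receptor that joins platelets to each other, and release granules loaded with chemokines. Normal articular cartilage has no blood vessels, whereas megakaryocytes live in bone marrow, which lies beneath the cartilage of a joint.

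The libraries held 24492412 to 28270779 counts. All 8 chondrocyte markers examined, such as Col2a1 and Acan, had counts in each library, with a summed level of 19277 and 31625 CPM in the controls and 3957.4 and 7991.7 CPM in osteoarthritis. CPM here are counts relative to library size, scaled by TMM, a correction for differences in RNA composition. Most of the control sums was Col2a1, at 13919 and 26813 CPM, against 3430.7 and 385 CPM in osteoarthritis. Acan had 493 and 587 CPM in the controls against 70.9 and 2703.1 CPM in osteoarthritis. Of the 8 chondrocyte markers, 4 lay below both controls and 0 above both, against 26.5% and 30.0% of all genes tested. Markers of other tissues separated the 2 osteoarthritis libraries from each other: 6 adipocyte genes summed to 6003 CPM in replicate 1 and 101 CPM in replicate 2, and 6 tendon and ligament genes to 352 and 7522.5 CPM. In the controls those sums were 1143.9 and 297 CPM for adipocyte and 2471.5 and 2468.6 CPM for tendon genes. The values of the platelet genes are therefore given by library.

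Platelet transcripts were plentiful in control cartilage and scarce in both osteoarthritis libraries. The 9 genes summed to 645 and 614 CPM in the controls, 23.1 CPM in osteoarthritis replicate 1 and 70.9 CPM in osteoarthritis replicate 2. For 8 genes both osteoarthritis libraries lay below both controls, which was so for 26.5% of the 15282 genes tested, and Gp1bb was listed at 0 throughout. The median log2 fold change of these 8 was -3.72, and over all genes tested it was 0.15. No single gene passed edgeR's quasi-likelihood test, among the 8 (adjusted p from 0.0824 to 0.298 after Benjamini-Hochberg adjustment) or among all genes, where 0.0% were called. By unadjusted p under 0.05 in that test, 7 of the 8 were lower, all but Tubb1, against 11.2% of all genes. With fewer platelets or megakaryocytes and with less RNA in each, a bulk library shows the same lower level, so the 2 cannot be told apart.

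**Figure D1:**
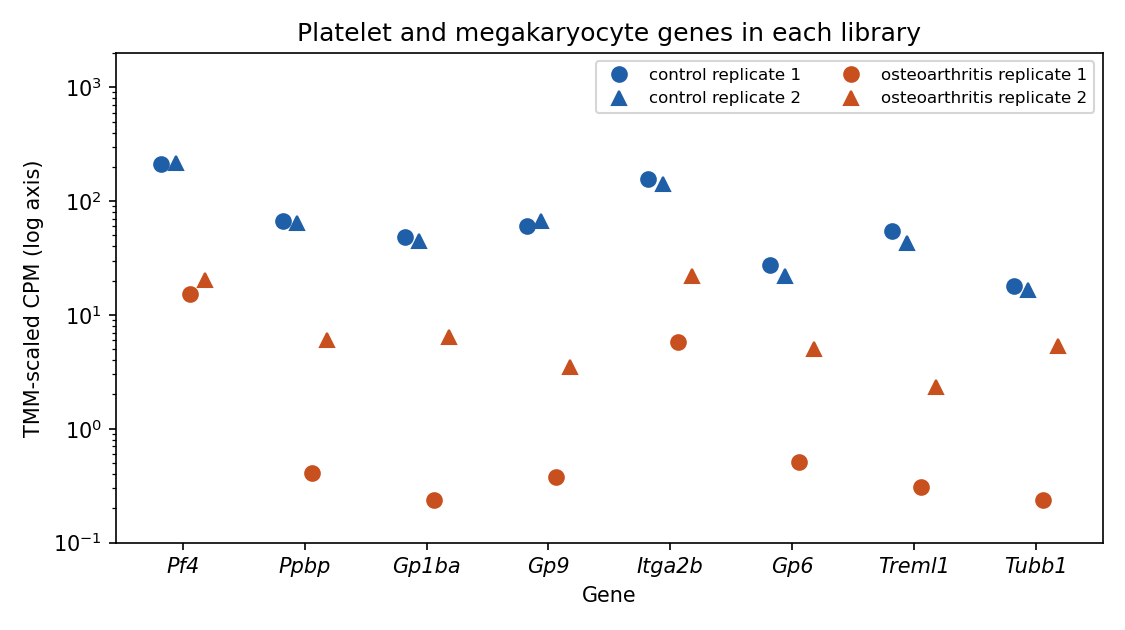
TMM-scaled CPM (log axis) of 8 platelet and megakaryocyte genes, with 1 point per library: blue for control, orange for osteoarthritis, circles for replicate 1 and triangles for replicate 2. The controls nearly coincide, both osteoarthritis libraries lie below them for each gene, and the osteoarthritis circles lie lowest, closely followed by the triangle for Pf4 only. Gp1bb, listed at 0 in all 4 libraries, is not drawn.

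The filter on low counts has to be read with that count. Of the 9 genes, 8 were tested, and 5 of these (Pf4, Ppbp, Gp9, Itga2b and Gp6) reached the filter's minimum of 0.369 CPM, before TMM scaling, in all 4 libraries, with a median log2 fold change of -3.60. Gp1ba, Treml1 and Tubb1 fell short of it in osteoarthritis replicate 1, so their place in the test rested on the controls. Calls depended on the method: DESeq2 called 7 of the 8 lower (8.26% of all genes), edgeR's likelihood ratio test 7 (6.4%), and the quasi-likelihood fit without a filter 7 (3.72%), each leaving out Tubb1. The quasi-likelihood fit also called 7 without osteoarthritis replicate 1 (6.95%) and 8 without osteoarthritis replicate 2 (5.73%), and 0 without either control. A fit without 1 osteoarthritis library takes its spread from the 2 controls, so the lone osteoarthritis library is assumed to vary as they do.

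The alpha granule chemokines had the highest levels per gene length in the controls, and their osteoarthritis values followed different patterns. Pf4, platelet factor 4, a heparin-binding chemokine released in clotting, had 213 and 216 CPM in the controls and 15.2 and 20.1 CPM in osteoarthritis. Each group was tight, and the groups lay far apart, with a fitted log2 fold change of -3.60 ± 0.36 (SE; edgeR adjusted p = 0.0824, DESeq2 adjusted p = 9.69e-18). Ppbp, whose product is processed to the neutrophil-attracting chemokine CXCL7, had 67.3 and 64.7 CPM in the controls, 0.407 CPM in osteoarthritis replicate 1 and 6.05 CPM in replicate 2. Its osteoarthritis libraries differed 14.9-fold from each other, and the fitted log2 fold change was -4.36 ± 1.20 (edgeR adjusted p = 0.135). The value in replicate 1 rested on 12 counts, for which the exact 95% Poisson interval is 6.20 to 21.0 counts. In RefSeq's order of genes on assembly GRCr8, Pf4 and Ppbp are neighbours within a group of CXC chemokine genes. Of that group Cxcl1, Cxcl2, Cxcl3 and Cxcl6 summed to 3.63 and 2.42 CPM in the controls and 1.93 and 1.64 CPM in osteoarthritis. Cxcl6 had 3.63 and 0.384 CPM in the controls against 0.407 and 0.346 CPM in osteoarthritis, and Cxcl1 was at 0 in control replicate 1 and at 2.03 CPM in control replicate 2, so neither separated the groups.

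The von Willebrand factor receptor is built from the products of Gp1ba, the ligand-binding chain, Gp1bb, its disulfide-linked partner, and Gp9. Gp1ba had 48.3 and 44.8 CPM in the controls, 0.237 CPM in osteoarthritis replicate 1 and 6.35 CPM in replicate 2. Replicate 1 was 196-fold below the control mean, on 7 counts (exact 95% Poisson interval 2.81 to 14.4), while replicate 2 was 7.33-fold below it. The fitted log2 fold change was -3.83 ± 1.35 (edgeR adjusted p = 0.183, DESeq2 adjusted p = 0.0102). Gp9 had 60.4 and 67.2 CPM in the controls and 0.373 and 3.50 CPM in osteoarthritis, for a fitted log2 change of -5.05 ± 1.06 (edgeR adjusted p = 0.101). Both osteoarthritis libraries were far below the controls, by 171-fold in replicate 1 and 18.2-fold in replicate 2.

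Gp1bb had 0 counts in each library, including the controls in which Gp1ba had 1372 and 1168 counts and Gp9 had 1715 and 1753. In the RefSeq annotation of GRCr8 the span of Gp1bb lies within that of Septin5, listed in the count table as Sept5, a septin gene picked for this overlap after its values were seen. Sept5 had 2642 and 2978 counts in the controls and 1029 and 1722 counts in osteoarthritis. The counting rule for overlapping genes is not given in the sources used here, and whether Gp1bb reads were assigned to Sept5 or dropped was not tested. The listed 0 is therefore no measurement of a missing receptor chain.

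Itga2b encodes integrin alpha IIb, the fibrinogen receptor subunit that platelets and their precursors carry. It had 156 and 141 CPM in the controls, 5.83 CPM in osteoarthritis replicate 1 and 22.2 CPM in replicate 2. The osteoarthritis libraries differed 3.80-fold, which put Itga2b between Pf4 and the remaining genes, and the fitted log2 change was -3.41 ± 0.70 (edgeR adjusted p = 0.0982, DESeq2 adjusted p = 2.16e-05). Itgb3, the beta 3 partner chain, which osteoclasts also use, lay below both controls in osteoarthritis replicate 1 only. It had 17.2 and 35.4 CPM in the controls against 1.76 and 20.7 CPM in osteoarthritis (log2 change -1.23 ± 1.10, edgeR adjusted p = 0.556). The groups overlapped for Itgb3. Within each library there were 9.07 and 3.98 Itga2b counts per Itgb3 count in the controls, and 3.31 and 1.07 in osteoarthritis.

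Gp6, Treml1 and Tubb1 encode a receptor for collagen, a granule receptor and a cytoskeletal protein. Gp6 had 27.6 and 22.0 CPM in the controls and 0.509 and 5.06 CPM in osteoarthritis (log2 change -3.16 ± 1.08, edgeR adjusted p = 0.177). Treml1, which encodes a receptor of platelet alpha granules that appears at the surface on activation, had 54.3 and 42.5 CPM in the controls and 0.305 and 2.33 CPM in osteoarthritis. Its fitted change was -5.21 ± 1.0 (edgeR adjusted p = 0.0914), within the SE of that of Gp9. Tubb1 encodes the beta-1 tubulin that forms the ring of microtubules around a platelet. It had 17.8 and 16.4 CPM in the controls and 0.237 and 5.32 CPM in osteoarthritis, the shallowest fitted change of the 8, at -2.63 ± 1.31 (edgeR adjusted p = 0.298). In replicate 2 Tubb1 was 3.22-fold below the control mean, and in replicate 1, on 7 counts, 72.2-fold below it.

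The 7 other beta tubulin genes, which serve many cell types, had a median log2 fold change of -0.03, with 2 of 7 below both controls and 1 above both, against 26.5% and 30.0% of all genes. Tubb4b had 275 and 339 CPM in the controls against 83.6 and 72.3 CPM in osteoarthritis (log2 change -1.98 ± 0.36, edgeR adjusted p = 0.0876). Tubb2b had 2.99 and 2.69 CPM in the controls against 3.97 and 28.7 CPM in osteoarthritis (2.52 ± 1.01, edgeR adjusted p = 0.216). Beta tubulins share much of their coding sequence, so reads could be split between them.

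The controls gave nearly the same value for each gene: control replicate 2 over replicate 1 ranged from 0.781-fold for Treml1 to 1.11-fold for Gp9. The osteoarthritis libraries did not. Replicate 2 over replicate 1 was 1.33-fold for Pf4, 3.80 for Itga2b, 7.64 for Treml1, 9.38 for Gp9, 9.94 for Gp6, 14.9 for Ppbp, 22.4 for Tubb1 and 26.8 for Gp1ba. In TMM-scaled CPM, replicate 1 was thus the lower library for all 8. Its median log2 value against the control mean was -6.74, and that of replicate 2 was -3.14. There is 1 library on each side, so this gap has no replicate check. For Pf4 the order depended on the scaling: its FPKM, without TMM, were 57.4 in replicate 1 and 56.4 in replicate 2.

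**Figure D2:**
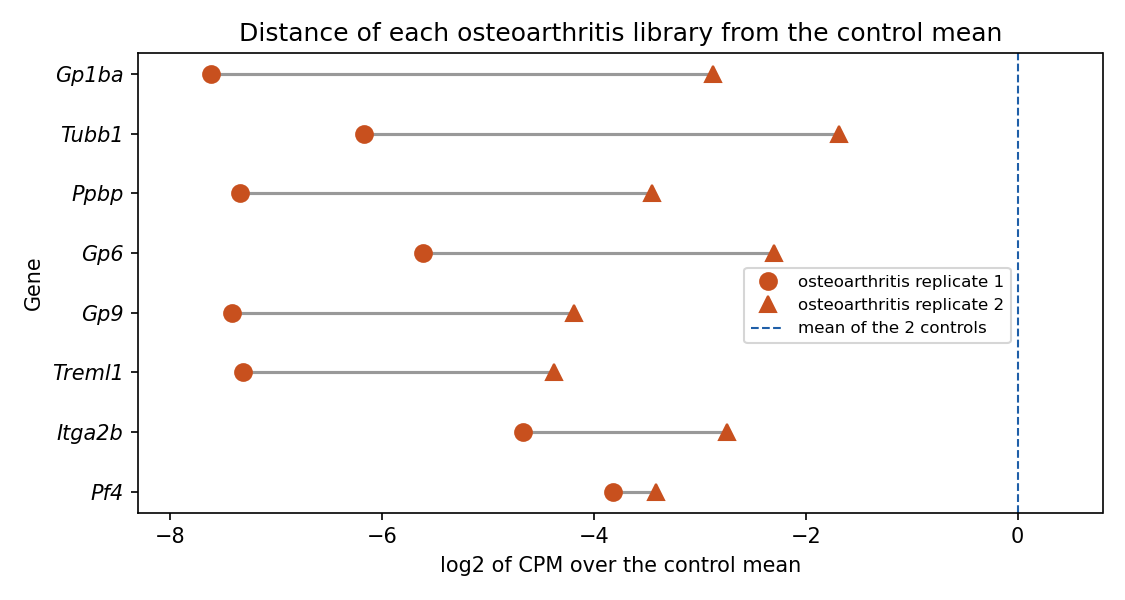
log2 of the CPM of each osteoarthritis library over the mean of both controls, for 8 genes ordered by the gap between the libraries. Circles are replicate 1, triangles replicate 2, and the dashed line at 0 is the control mean; the gap is smallest for Pf4 (0.41) and largest for Gp1ba (4.74).

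Pf4 stood at a similar level in both osteoarthritis libraries while the others were lower in replicate 1, and the make-up of the platelet transcripts in replicate 1 differed accordingly. Pf4 took 33.1% (exact 95% binomial interval 32.4 to 33.7) and 35.1% (34.4 to 35.9) of the counts of the 9 genes in the controls and 28.4% (26.2 to 30.6) in osteoarthritis replicate 2. In osteoarthritis replicate 1 it took 65.7% (62.03 to 69.3). There were 3.17 and 3.34 Pf4 counts per Ppbp count in the controls and 3.33 (2.75 to 4.05) in osteoarthritis replicate 2, against 37.3 (21.1 to 72.6) in replicate 1. The intervals cover counting error only.

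The share of Itga2b was 24.2% and 22.9% in the controls, 25.3% (22.1 to 28.7) in osteoarthritis replicate 1 and 31.3% (29.0 to 33.6) in replicate 2. There were 1.11 and 0.962 Ppbp counts per Gp9 count in the controls and 1.73 (1.31 to 2.30) in osteoarthritis replicate 2, while the ratio in replicate 1, 1.09 (0.441 to 2.73), rested on 12 and 11 counts and its interval holds all 3 of the others. Replicate 2 also had 1.81 (1.37 to 2.41) Gp1ba counts per Gp9 count, where the controls had 0.80 and 0.666, and 1.52 (1.14 to 2.04) Tubb1 counts per Gp9 count, where the controls had 0.296 and 0.244. Its 0.667 (0.463 to 0.952) Treml1 counts per Gp9 count lay between the 0.90 and 0.631 of the controls.

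**Figure D3:**
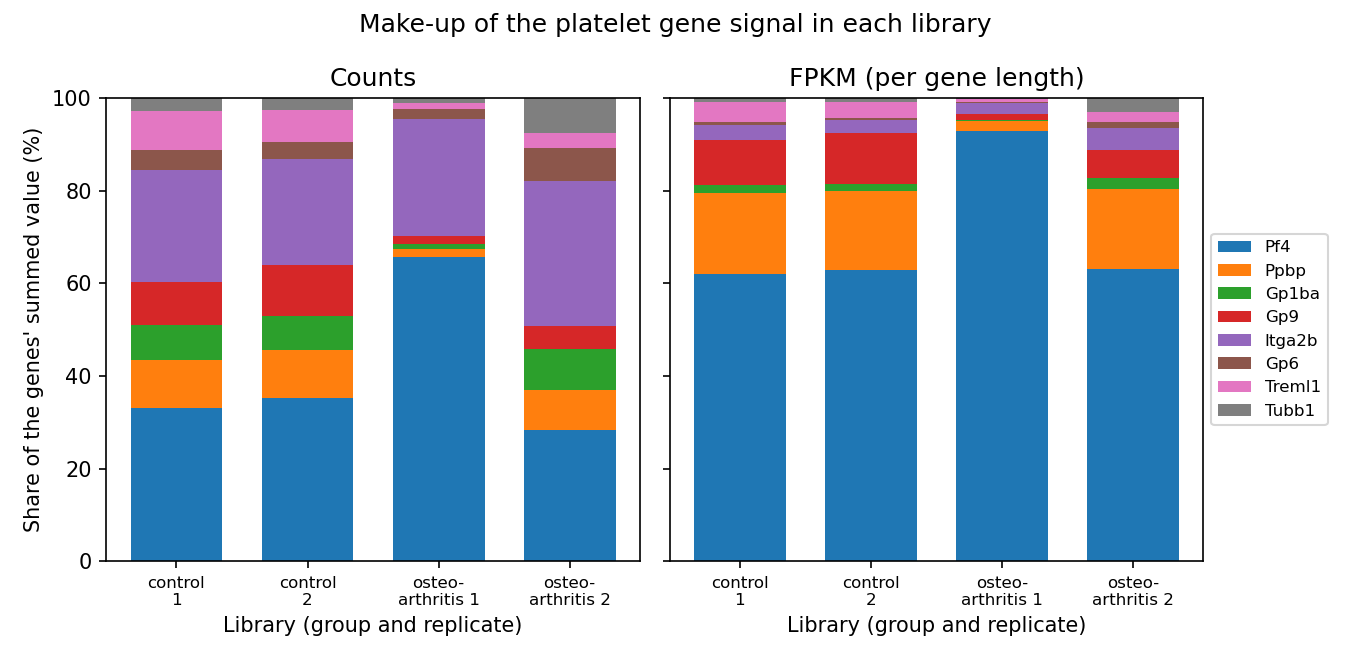
Share of each gene in the summed value of the platelet genes, in percent, for each library, from counts on the left and from FPKM on the right. Pf4 takes 65.7% of the counts and 92.8% of the FPKM in osteoarthritis replicate 1, and 28.4% to 35.1% of the counts and 61.9% to 63.2% of the FPKM in the other libraries.

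Levels of different genes are compared per length, on the FPKM scale. In the controls Pf4 stood first with 677 and 626 FPKM, followed by Ppbp with 193 and 169 and Gp9 with 107 and 109. Treml1 (46.2 and 33.0 FPKM) and Itga2b (33.4 and 27.6 FPKM) overlapped, and Gp1ba (18.2 and 15.4), Tubb1 (10.6 and 8.92) and Gp6 (7.93 and 5.78) came next, each apart from its neighbours. Pf4 was also first in both osteoarthritis libraries, with 57.4 and 56.4 FPKM. Behind it in osteoarthritis replicate 2 stood Ppbp at 15.3 FPKM, and Gp6 was lowest at 1.28 FPKM. In replicate 1 the next values were 1.49 FPKM for Itga2b and 1.39 FPKM for Ppbp, and the lowest were 0.174 for Gp6, 0.168 for Tubb1 and 0.107 for Gp1ba. The order of Itga2b and Ppbp, the latter on 12 counts, was not resolved. Nor was the order among Gp6, Tubb1 and Gp1ba, each on 7 to 15 counts. The deposited FPKM imply a length of 318 bases for Pf4 and 4708 bases for Itga2b, so the count and FPKM shares of these 2 differ widely.

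Some macrophages also make Pf4, so a macrophage list was set beside it. Its 8 markers summed to 5314.1 and 7671.2 CPM in the controls and 885 and 1378.3 CPM in osteoarthritis, with none at 0. Lyz2 alone gave 4705.4 and 6879.2 CPM in the controls, 382 CPM in osteoarthritis replicate 1 and 1100.2 CPM in replicate 2. Of the 8, 5 lay below both controls and 1, Mrc1, above both, against 26.5% and 30.0% of all genes tested. The list's median log2 fold change was -0.97. From osteoarthritis replicate 1 to replicate 2 its median log2 difference was -0.77, that of the 8 platelet genes 3.27 and that of Pf4 0.41. The part of macrophages in the Pf4 level was not tested.

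Megakaryocyte promoters are known for sites of GATA and ETS family factors, so the 250 bases before the gene start were searched on both strands. RefSeq's promoter table of GRCr8 held 8 of the 9 genes; Pf4 had no entry. The GATA motif, searched as AGATAA, and with its variants as TGATAA, and also AGATAG, and last TGATAG, was in 4 of the 8 (Itga2b, Gp1ba, Gp1bb and Gp6) and in 26.7% of 27457 promoters of the same length. The ETS motif, searched as AGGAAG and likewise as CGGAAG, was in 6 of the 8, all but Ppbp and Treml1, and in 39.8% of promoters. The RUNX motif, searched as TGTGGT and likewise as TGCGGT, was in 4 (18.7% of promoters) and the TATA box letters TATAAA in 1, Ppbp (13.1%). A match describes letters and not a bound site. Shown are the 3 genes with counts that hold matches to both the GATA and the ETS letters searched (Gp1bb, which has no counts here, holds both too), and Gp9, which matches the ETS letters but none of the 4 GATA forms searched, written 5′ to 3′ in the direction of the gene, with GATA and ETS matches on either strand in capitals.
Itga2b, chr10:87925834-87926083, minus strand: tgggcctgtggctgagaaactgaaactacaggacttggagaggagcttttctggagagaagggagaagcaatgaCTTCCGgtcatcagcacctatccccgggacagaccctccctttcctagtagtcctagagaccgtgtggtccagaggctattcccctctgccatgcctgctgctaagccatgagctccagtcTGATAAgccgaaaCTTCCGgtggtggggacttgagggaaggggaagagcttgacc
Gp1ba, chr10:55851309-55851558, plus strand: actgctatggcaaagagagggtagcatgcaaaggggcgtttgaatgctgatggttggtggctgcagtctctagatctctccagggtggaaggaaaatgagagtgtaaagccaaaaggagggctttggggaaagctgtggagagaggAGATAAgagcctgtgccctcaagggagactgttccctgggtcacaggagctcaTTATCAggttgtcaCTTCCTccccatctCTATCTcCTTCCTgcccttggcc
Gp6, chr1:78508258-78508507, plus strand: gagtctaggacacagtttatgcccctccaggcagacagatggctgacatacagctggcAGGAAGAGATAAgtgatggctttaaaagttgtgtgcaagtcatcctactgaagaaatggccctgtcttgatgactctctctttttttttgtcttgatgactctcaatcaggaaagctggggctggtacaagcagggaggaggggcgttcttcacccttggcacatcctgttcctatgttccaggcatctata
Gp9, chr4:121792592-121792841, plus strand: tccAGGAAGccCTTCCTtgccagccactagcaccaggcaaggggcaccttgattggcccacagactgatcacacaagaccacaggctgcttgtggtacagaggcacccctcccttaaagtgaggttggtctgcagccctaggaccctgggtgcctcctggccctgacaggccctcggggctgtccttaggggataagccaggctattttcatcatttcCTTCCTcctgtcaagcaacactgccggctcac
In Itga2b a GATA match starts 55 bases before the gene start, with an ETS match that starts at 42 bases. In Gp6 the ETS and GATA letters adjoin, starting 192 and 186 bases before the gene start. Gp1ba holds 3 GATA and 2 ETS matches, and the 3 ETS matches of Gp9 include a pair facing each other at the far end of the window.

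The wider pathway was followed with 5 lists of 10 genes each. Of the 50, 49 were tested and none passed the quasi-likelihood test over all genes. Both osteoarthritis libraries lay below both controls for 32 of the 49 and above both for 3, against 26.5% and 30.0% of all genes. Those shares are also the background for the count of each list below. The median log2 fold change of the 49 was -1.64, and -1.52 for the 46 that reached the filter's minimum in all 4 libraries. The rest fell short of it in osteoarthritis, so their place in the test rested on the controls. Of these, Gp5 and Gata1 fell short in both osteoarthritis libraries, so the filter all but fixed their place below both controls. At an unadjusted p under 0.05, 28 were lower and 1 higher (11.2% and 12.2% of all genes), and DESeq2 called 26 lower and 0 higher (8.26% and 7.24%). Without osteoarthritis replicate 1 the quasi-likelihood fit called 23 of them lower (6.95% of all genes) and 2 higher (8.16%), without osteoarthritis replicate 2 it called 23 lower (5.73%) and 1 higher (4.88%), and without either control it called 0. Many of these genes are also expressed by other blood cells or by vessel lining.

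**Figure D4:**
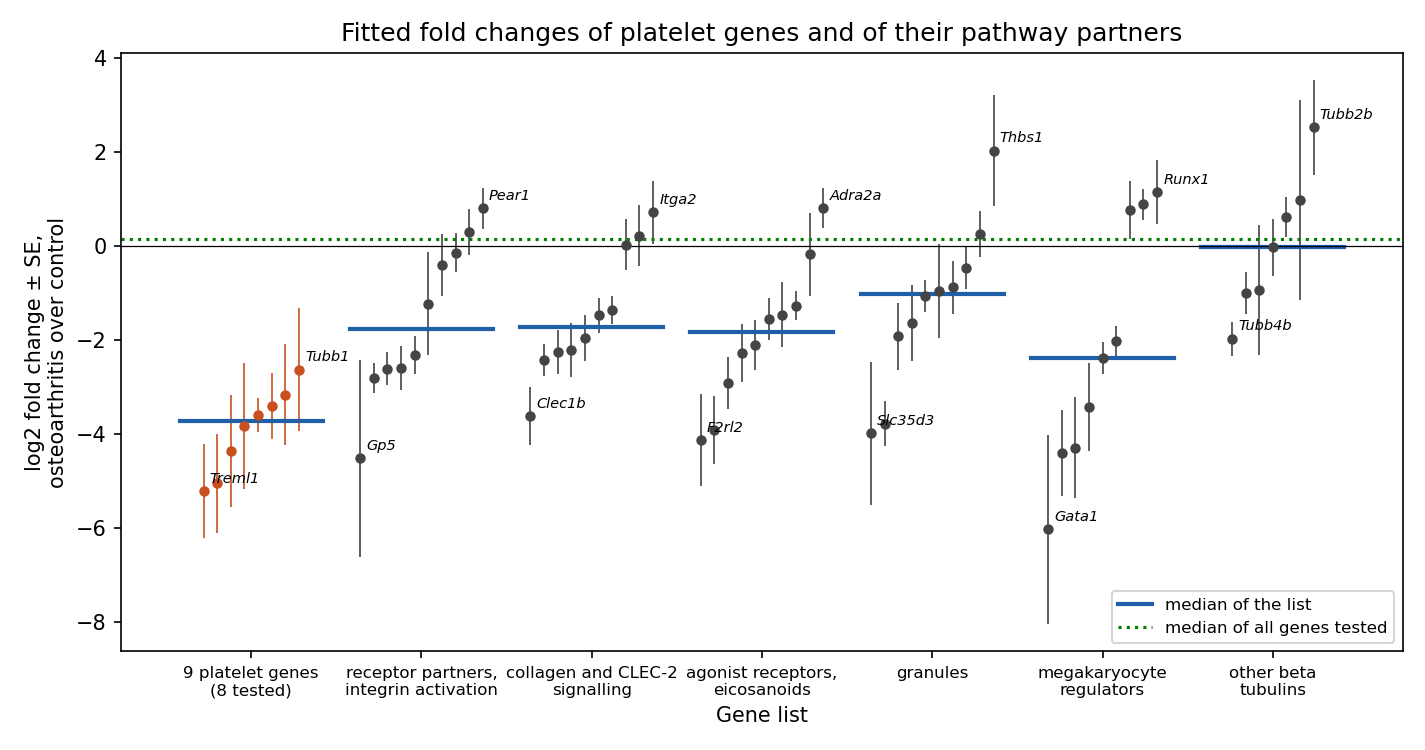
Fitted log2 fold change (points) with SE (bars), osteoarthritis over control, for the 8 tested platelet genes (orange), the 5 partner lists and the other beta tubulins (grey). Blue lines are list medians, -3.72 for the platelet genes and -1.02 to -2.39 for the partner lists, and the dotted line is the median of all genes tested, 0.15. The fitted values of Gata1 and Gp5, at 0 in osteoarthritis replicate 1, depend on the prior count.

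Among 10 partners of the receptors and of integrin activation, 5 lay below both controls and 1 above both, with a median of -1.77. Without Gp5, the median of the 9 that reached the filter's minimum in all 4 libraries was -1.23. Plek, pleckstrin, the main substrate of protein kinase C in platelets, had 141 and 119 CPM in the controls against 19.1 and 18.2 CPM in osteoarthritis (log2 change -2.80 ± 0.32, edgeR adjusted p = 0.0824). Bin2, an adaptor of blood cells, had 143 and 101 CPM in the controls against 19.2 and 20.6 CPM in osteoarthritis (-2.62 ± 0.35). For both, the osteoarthritis libraries were close to each other. Gp5, the subunit that joins the GPIb-IX complex, was near the limit of detection, with 28 and 29 counts in control and 0 and 2 in osteoarthritis.

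Of the 10 genes of collagen and CLEC-2 receptor signalling, 7 lay below both controls and 0 above, with a median of -1.72. Clec1b encodes CLEC-2, the platelet receptor for podoplanin, and had 30.5 and 23.1 CPM in the controls against 1.29 and 3.07 CPM in osteoarthritis (-3.62 ± 0.62, edgeR adjusted p = 0.0849). Fcer1g, the signalling chain that GPVI needs and that mast cells and macrophages also carry, had 189 and 276 CPM in the controls against 80.0 and 39.6 CPM in osteoarthritis (-1.96 ± 0.49, edgeR adjusted p = 0.12). Fcer1g was higher in osteoarthritis replicate 1 than in replicate 2, where Gp6 had the opposite order. Syk, the kinase both receptors use, had 142 and 134 CPM in the controls against 22.0 and 29.5 CPM in osteoarthritis (-2.42 ± 0.34).

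Agonist receptors and eicosanoid enzymes had 8 of 10 below both controls, 1 above both and a median of -1.83. F2rl3, the thrombin receptor PAR4, had 14.99 and 9.32 CPM in the controls against 0.95 and 0.648 CPM in osteoarthritis (-3.92 ± 0.73, edgeR adjusted p = 0.0881). Alox12, the platelet 12-lipoxygenase, had 100.1 and 42.3 CPM in the controls against 7.36 and 11.4 CPM in osteoarthritis (-2.92 ± 0.55). The controls differed more for Alox12 than for any of the 8 platelet genes, yet the groups did not overlap.

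Granule genes were mixed, with 6 of 10 below both controls, 0 above both and a median of -1.02. For the 9 that reached the filter's minimum in all 4 libraries the median was -0.96. Srgn, serglycin, the granule proteoglycan that holds Pf4 and is made by most marrow cells, had 667 and 1028.5 CPM in the controls against 64.9 and 58.6 CPM in osteoarthritis (-3.78 ± 0.48, edgeR adjusted p = 0.0824). Nbeal2, needed to form alpha granules, had 86.2 and 67.6 CPM in the controls against 41.6 and 31.8 CPM in osteoarthritis (-1.07 ± 0.33, edgeR adjusted p = 0.158). Vwf, von Willebrand factor, which vessel lining also makes, had 325 and 156 CPM in the controls against 253 and 320 CPM in osteoarthritis, and the groups overlapped (0.25 ± 0.48, edgeR adjusted p = 0.807). The 8 endothelial markers summed to 746 and 362 CPM in the controls against 1335.5 and 639 CPM in osteoarthritis, with none at 0, and 3 of 8 lay above both controls and 0 below both, against 30.0% and 26.5% of all genes. The part of endothelium in the Vwf level was not tested.

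Megakaryocyte regulators had 6 of 9 tested genes below both controls and 1 above both, with a median of -2.39. Without Gata1, the median of the 8 that reached the filter's minimum in all 4 libraries was -2.21. Nfe2, a transcription factor needed for platelet release, had 138 and 159 CPM in the controls against 1.97 and 12.0 CPM in osteoarthritis (-4.42 ± 0.92, edgeR adjusted p = 0.0985). It was lower in osteoarthritis replicate 1 than in replicate 2, the order seen for the 8 platelet genes in TMM-scaled CPM. Gata1, the transcription factor of megakaryocytes and red cell precursors, was scarce, with 1.48 and 1.76 CPM in control, 0 in osteoarthritis replicate 1 and 0.0432 CPM in replicate 2. Its cofactor Zfpm1, with 196 and 173 CPM in the controls against 47.9 and 42.3 CPM in osteoarthritis, and Tal1, with 160 and 209 and then 33.3 and 37.1 CPM, had fitted changes of -2.03 ± 0.33 and -2.39 ± 0.35. Fli1, Runx1 and Mef2c, named after their values were seen and also used by cells outside the marrow, had positive fitted changes of 0.76, 1.15 and 0.88 (edgeR adjusted p = 0.516, 0.369 and 0.195). The osteoarthritis libraries disagreed for Fli1, with 103 and 69.5 CPM in the controls, 223 CPM in replicate 1 and 68.1 CPM in replicate 2. They disagreed likewise for Runx1, with 55.4 and 61.9 CPM in the controls, 50.9 CPM in replicate 1 and 209 CPM in replicate 2. Mef2c had 52.3 and 71.0 CPM in the controls, and both osteoarthritis libraries lay above them at 116 and 111 CPM.

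Markers of other marrow lineages also lay lower in the osteoarthritis libraries. Over all genes tested, 26.5% lay below both controls and 30.0% above both. All 8 erythroid markers lay below both controls, with sums of 2949.8 and 3584.2 CPM in the controls against 33.8 and 394 CPM in osteoarthritis, and none at 0. Of 8 neutrophil genes 7 were tested and lay below both controls, with sums of 6849 and 10604 CPM in the controls against 99.5 and 565.5 CPM in osteoarthritis; Ltf was at 0 in 3 libraries. All 8 B cell genes lay below both controls, with sums of 356 and 495 CPM and of 21.1 and 35.4 CPM. Of these 8, 6 reached the filter's minimum in all 4 libraries. From osteoarthritis replicate 1 to 2 the median log2 difference was 3.36 for erythroid, 3.12 for neutrophil and 1.01 for B cell genes, beside 3.27 for the 8 platelet genes. Of 6 osteoblast genes 4 lay below both controls and 0 above both, with a median log2 fold change of -3.86 and none at 0. For the 5 that reached the filter's minimum in all 4 libraries, all but Bglap, the median was -3.55. Bglap, osteocalcin, stood at 520 and 2913.9 CPM in the controls against 0.848 and 0.259 CPM in osteoarthritis, Dmp1 at 59.7 and 265 CPM against 7.22 and 5.92 CPM, and Sp7 at 9.22 and 40.8 CPM against 1.83 and 0.907 CPM. These 3, picked outside the naming rule given below, had the most negative fitted changes of the 6. The groups overlapped for Phex, with 1.48 and 15.9 CPM in the controls against 4.99 and 1.17 CPM in osteoarthritis. The sum of the 6, at 7853.8 and 37014 CPM in the controls and 20266 and 102890 CPM in osteoarthritis, was carried by Col1a1, which fibrous tissue also makes. The part of marrow and bone in the dissected tissue was not tested.

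Among 10896 tested genes outside all lists and with at least 5 CPM in control, those closest to the mean profile of the 8 platelet genes over the 4 libraries were Cd177, Add2, LOC102547475, Tfr2 and Kel. Their root mean square distance from it on the centred log2 CPM scale was 0.128, 0.183, 0.20, 0.213 and 0.232. The 8 genes that form the profile lay farther from it, from 0.378 for Gp6 to 1.0 for Pf4. The genes named above were picked for the smallest of 10896 distances, so this contrast follows largely from the selection. Cd177, a surface protein of neutrophils, had 41.0 and 35.9 CPM in the controls against 0.407 and 4.19 CPM in osteoarthritis. Tfr2, a transferrin-binding receptor of liver and red cell precursors, had 30.4 and 27.2 CPM in the controls against 0.237 and 2.77 CPM in osteoarthritis. Add2 encodes a subunit of adducin, a membrane skeleton protein of red cells, and Kel the red cell antigen Kell. The profile rests on 4 libraries in 2 groups.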

How the data were processed

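Cartilage RNA libraries, 2 control and 2 osteoarthritis, were grouped by the disease label. No header or label names the counting tool or annotation; the submitters' processing notes name fastp, TopHat and the human build hg38, although the symbols are rat symbols. The authors deposited raw read counts per gene and FPKM values, which per the file headers cover the same libraries. The deposited FPKM follow from the counts, a fixed length per gene and the column total (largest relative deviation 5.33e-15) and add no measurement. The test was run on the counts in edgeR 4.0.16 (R 4.3.3): filterByExpr (15282 of 24005 genes), TMM, quasi-likelihood F test, two-sided, Benjamini-Hochberg adjustment, threshold 0.05. SE is the log2 fold change divided by the root of F. Exact permutation of 4 libraries for 1 gene has a smallest possible two-sided p = 0.333 and was not used. Depth was 24492412 to 28270779 counts, and intervals cover counting error only. DESeq2 1.42.0, limma 3.58.1 (voom, and trend on log2 FPKM), other scalings, no filter and fits without each library were alternatives. Scripts were tested on simulated data.

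Members and lists were chosen with earlier results of these data known. Named genes are all 9 members, the 2 of each partner or family list with the smallest unadjusted p, 8 genes fixed by name (Itgb3, Gp5, Vwf, Gata1, Nfe2, Fcer1g, Clec1b and 1 that is not reported here) and the 5 genes closest to the mean profile of the tested members in centred log2 CPM (prior count 2). Outside this rule the text also names Col2a1, Acan, Lyz2, Mrc1, Ltf, Bglap, Dmp1, Sp7, Phex and Col1a1 from the cell type lists. Sept5, Fli1, Runx1 and Mef2c also fall outside it. The names Fyb1 and Cxcl5 were matched through RefSeq synonyms (GRCr8), the latter to Cxcl6. Python 3.11.15 and matplotlib 3.10.9 drew the figures.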

Additional observations from a re-analysis of the deposited data

How the results depend on the processing

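Both osteoarthritis libraries stayed below both controls (or below the remaining control) for the 8 tested platelet genes under all 14 alternatives, and no alternative called any of the 9 higher. The first statement compares scaled values only, so the 14 are not separate checks of it. The likelihood ratio test and voom reuse the CPM of the main fit, and both FPKM settings share the same order of libraries. Leaving a library out mainly removes a value from an order that already held. The count called lower, 0 in the quasi-likelihood fit, was 7 with no filter on low counts, 7 with DESeq2, 7 with edgeR's likelihood ratio test, and 0 to 8 when 1 library was left out (8 without osteoarthritis replicate 2, 7 without osteoarthritis replicate 1, 0 without either control); such fits take the spread from the group that keeps both libraries. Limma-voom, limma-trend on FPKM and the other scalings called 0. The cause was not tested. Over all genes the counts lower and higher were 751 and 677 with no filter, 1262 and 1107 with DESeq2, 978 and 965 with the likelihood ratio test, and 0 to 1105 lower and 0 to 1297 higher without 1 library. The median log2 fold change of the 8 ran from -6.71 without osteoarthritis replicate 2 to -3.17 without osteoarthritis replicate 1. With library size alone as the scale, the median of all genes was 0.27, and the median of the 8 lay 3.98 below it. The 49 pathway genes had medians from -1.997 to -1.65 without 1 library. Without 1 library, Cxcl1 ran from -0.79 (control replicate 1 left out; -0.24 without osteoarthritis replicate 1) to 8.05 and Vwf from -0.17 (control replicate 2 left out) to 0.82. By FPKM, Pf4 took 61.9% and 62.9% of the platelet gene sum in the controls, 92.8% in osteoarthritis replicate 1 and 63.2% in replicate 2, because FPKM divides by gene length. Values of 7 to 15 counts in osteoarthritis replicate 1 limit the precision for 6 of the 8 genes. No paired analysis was possible because the labels carry no replicate number that the groups share.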
